A study of Anguilla japonica with 6 samples.

Results

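Genes that attach ubiquitin to proteins or take it off again were compared between immature testis and ovary of the Japanese eel (Anguilla japonica). They were chosen by symbol alone, as the names beginning with ube2, cul, fbxl, fbxo, fbxw, klhl, kbtbd, usp, otud or anapc in the SwissProt annotation of the transcripts, and numbered 145 of the 9262 vertebrate symbols in the table. Among them were 27 E2 enzymes (ube2), 6 cullins (cul), 43 F-box proteins (fbxl, fbxo, fbxw), 26 BTB-Kelch proteins (klhl, kbtbd), 34 deubiquitinases (usp, otud) and 9 subunits of the anaphase-promoting complex (anapc). RNA had been sequenced from the testes of 3 males and the ovaries of 3 females, all farmed fish at the silver stage, in which the gonads are differentiated but immature, and none had been given hormone. Every fish gave 1 library, and the sources used here give neither strain nor age.

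Ubiquitin is a small protein that is joined to other proteins, most often to send them to the proteasome for destruction. An E1 enzyme activates it, an E2 enzyme carries it, and a ligase chooses the target. In cullin ligases the cullin is the scaffold, F-box proteins hold the target on cul1, and BTB-Kelch proteins hold it on cul3. The anaphase-promoting complex, APC/C, is a related ligase that ends mitosis and meiosis by marking cyclins and securin. In vertebrate germ cells the pathway is known for holding and releasing the meiotic arrest of the egg and for clearing proteins during sperm formation.

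The annotated protein domains went with the names for most of the members' transcripts. The domain of the class was annotated on 98.7% of BTB-Kelch, 95.5% of cullin, 90.5% of F-box, 86.4% of deubiquitinase and 74.5% of E2 transcripts. Members described below that had it annotated on no transcript included ube2h, ube2s, fbxo43, otud3, otud5a and otud6b. Subunits of the APC/C share no single domain, and 42.3% of their transcripts carried one of those searched for. Symbols come from best protein hits, so paralogs of a teleost may be pooled under 1 symbol. Some members do other work than the class name says. The ube2f and ube2m products carry NEDD8, usp39 is a splicing factor, and usp6nl is a regulator of Rab proteins without the deubiquitinase domain.

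Testis libraries held 11913969 to 13616804 counts and ovary libraries 15096728 to 18508307. Over the members, rank correlations between libraries were 0.946 to 0.974 among ovaries and 0.952 between testis replicates 2 and 3, whereas testis replicate 1 reached 0.787 and 0.762 with the other testes. Testis replicate 1 also stood apart in marker genes. Summed over 8 of 9 listed sperm flagellum genes it had 714 FPKM (fragments scaled for transcript length and library size), against 259 and 228 in testis replicates 2 and 3 and 28.9 to 51 in ovaries. Its 2 matched red blood cell genes, of 6 listed, summed to 3727 FPKM, against 121 and 144 in the other testes and 1.96 to 5.56 in ovaries. All 9 oocyte genes were found and summed to 610, 22985 and 4499 FPKM in testis replicates 1, 2 and 3, and to 137939 to 157698 in ovaries. Meiotic genes, 8 of 8 found, summed to 566 to 1281 FPKM in testes and 11.1 to 17.3 in ovaries. Smooth muscle genes, 6 of 6 found, summed to 874, 70.2 and 176 FPKM in testis replicates 1, 2 and 3 and 140 to 196 in ovaries. Gonadal somatic genes, 7 of 8 found, summed to 127, 158 and 428 FPKM in these testes and 9.66 to 14.5 in ovaries. The part of these markers in the members' differences was not tested. In bulk tissue, fewer cells of a type and less RNA per cell cannot be told apart. Results that lean on testis replicate 1 are given with and without it.

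All 145 members passed the low-count filter. Of these, 32 rose in testis relative to ovary and 28 fell at an adjusted p under 0.05 in edgeR, or 22.1% and 19.3%, and 85 were not called. Among all 12367 genes tested, testis was higher for 24.8% and ovary for 21.1%, 45.9% in all. These include single transcripts without a symbol, each counted as a gene. For the 9182 genes with a symbol the shares were 22.8% and 22.5%, 45.3% in all. The members, at 41.4%, were thus called about as often as other genes. FPKM did not overlap between the tissues for 82 members, 56.6%, against 59.2% of all genes. Called differences of at least 2 on the log2 scale favoured testis for 16 of the 145 members and ovary for 6. Both are smaller shares than the 17.9% and 12.7% of all genes. Of the 9182 genes with a symbol, 1314 favoured testis and 1058 ovary by that much. The median log2 fold change (testis over ovary) was -0.09 for the members, 0.11 for all genes and 0.01 for genes with a symbol. With upper quartile scaling the members' median was 0.11 and that of all genes 0.30.

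The classes differed in how their calls were divided, beside 24.8% of all genes higher in testis and 21.1% in ovary. For genes with a symbol these shares were 22.8% and 22.5%. Of the BTB-Kelch genes 9 favoured testis and 4 ovary (34.6% and 15.4%), and of the deubiquitinases 9 and 3 (26.5% and 8.82%). The F-box genes gave 10 and 6 (23.3% and 14%). For deubiquitinases and F-box genes the share in testis was near that of all genes. In the other classes more genes were higher in ovary than in testis. E2 enzymes gave 2 in testis and 7 in ovary (7.41% and 25.9%), cullins 1 and 3 (16.7% and 50%), and APC/C subunits 1 and 5 (11.1% and 55.6%). For E2 enzymes the share in ovary was near that of all genes, and the share in testis was below that of all genes. The median log2 fold changes were 0.55 for BTB-Kelch, 0.39 for deubiquitinase, 0.06 for F-box, -0.28 for cullin, -0.46 for E2 and -1.20 for APC/C genes. Without testis replicate 1 the medians were 0.05 for BTB-Kelch, -0.11 for deubiquitinase and -0.00 for F-box genes. The F-box median was also -0.00 with relative log expression scaling and with DESeq2, -0.01 without testis replicate 2 or 3, and -0.06 with the replicate block. Summed over transcripts built from ovary long reads alone the medians were 0.12 for E2 and 0.19 for cullin genes, beside 0.01 for all genes. Over those built from testis long reads they were -1.65 for E2, 0.48 for cullin and -0.27 for F-box genes, beside 0.27 for all genes. Each of these fits was scaled on its own, so a median's side of 0 is not comparable with the main fit. Leaving out testis replicate 1 gave 2 and 9 E2, 1 and 3 cullin, 11 and 9 F-box, 7 and 6 BTB-Kelch, 9 and 6 deubiquitinase and 1 and 4 APC/C genes in favour of testis and ovary, in that order. As shares these were 7.41% and 33.3%, 16.7% and 50%, 25.6% and 20.9%, 26.9% and 23.1%, 26.5% and 17.6%, and 11.1% and 44.4%. All genes gave 25% and 24% in that fit. The differences between classes were not tested.

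**Figure D1:**
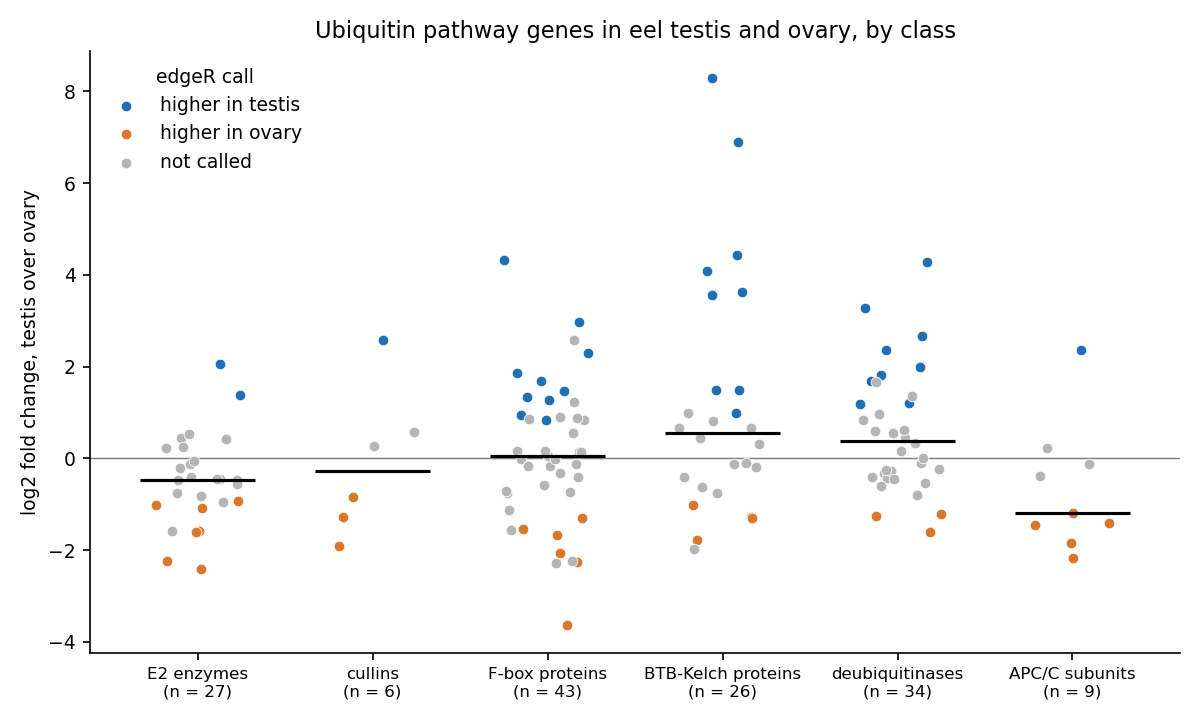
Each point is 1 of the 145 genes, with the log2 fold change of testis over ovary on the vertical axis and the class on the horizontal axis. Colours give the edgeR call and black lines the class medians. The highest points are BTB-Kelch genes, led by klhl6 at 8.29, and the APC/C median, -1.20, is the lowest.

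Of the 27 E2 enzymes, 2 favoured testis and 7 ovary. The most abundant E2 in either tissue was ube2c, the E2 that starts ubiquitin chains on APC/C targets. It had 359, 160 and 256 FPKM in testes and 1015, 658 and 1331 FPKM in ovaries, with no overlap and a log2 fold change of -2.24 ± 0.44 (SE, adjusted p = 0.0069). Its reads fell on a single transcript, on which the domain of the E2 class was annotated. The second protein annotation of this transcript names another gene, dnttip1, so the symbol is uncertain. The partner of ube2c that lengthens such chains, ube2s, had 62.6, 8.23 and 5.12 FPKM in testes and 26.3, 35.7 and 21.1 FPKM in ovaries. The first testis was above all ovaries and the other two were below them, and the gene was called only without testis replicate 1 (log2 fold change -2.22, adjusted p = 0.00378; -0.46 and 0.675 with all libraries).

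The Rad6 enzymes ube2a and ube2b, which ubiquitinate histone H2B and of which mouse ube2b is needed for normal sperm formation, differed from each other in their values. For ube2a the testes had 69.5, 166 and 197 FPKM and the ovaries 335, 295 and 236 FPKM. The groups did not overlap, and the difference was -1.59 ± 0.47 (adjusted p = 0.0287), a call lost without testis replicate 2 or any 1 of the ovaries (adjusted p = 0.0583 to 0.0886). For ube2b the testes had 34.5, 26.8 and 53.6 FPKM and the ovaries 44.5, 41.2 and 37.5 FPKM, which overlapped (-0.47 ± 0.32, adjusted p = 0.263). Without testis replicate 3 it was higher in ovary (-0.90, adjusted p = 0.047). The Fanconi anaemia E2 ube2t had 83.9, 41.9 and 41.4 FPKM in testes and 110, 140 and 324 FPKM in ovaries, where replicate 3 was highest. Its call (-1.61 ± 0.53, adjusted p = 0.043) was lost without testis replicate 2 or 3 or ovary replicate 2 or 3 (adjusted p = 0.0527 to 0.104), and the difference was -0.95 without ovary replicate 3.

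Higher in testis were ube2h and ube2v1. The CTLH ligase's E2, ube2h, had 10.8, 7.67 and 8.06 FPKM in testes and 1.94, 2.13 and 1.24 FPKM in ovaries, a separation without overlap (2.06 ± 0.40, adjusted p = 0.0067). The inactive E2 variant ube2v1, which pairs with ube2n to build chains that do not lead to the proteasome, had 272, 163 and 218 FPKM in testes and 75.5, 56.5 and 68 FPKM in ovaries. All testes were above all ovaries (1.38 ± 0.28, adjusted p = 0.00759). Its relative ube2v2, named after its values were seen, was higher in ovary (-0.92, adjusted p = 0.0464), a call that leaving out any 1 library but ovary replicate 3 ended (adjusted p = 0.0534 to 0.137). Their shared partner ube2n was not called, with 182, 82.4 and 114 FPKM in testes and 69.3, 85.1 and 104 FPKM in ovaries. E2 transcripts together took 0.282%, 0.205% and 0.255% of the counts in testes and 0.344%, 0.341% and 0.351% in ovaries, so each testis was below each ovary.

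Of the 6 cullins, cul9 was higher in testis, cul1, cul2 and cul5 were higher in ovary, and cul3 and cul4b were not called. The p53-binding cullin cul9 had 70.3, 71.8 and 87.7 FPKM in testes, against 6.01, 7.75 and 7.13 FPKM in ovaries. Values within a tissue lay close together and the tissues were far apart, at 2.58 ± 0.29 (adjusted p = 0.00137). The scaffold of SOCS-box ligases, cul5, had 20.2, 12.3 and 14.4 FPKM in testes and 42, 51.8 and 44.4 FPKM in ovaries, without overlap (-1.91 ± 0.25, adjusted p = 0.00201). The scaffold of the von Hippel-Lindau ligase, cul2, had 21.7, 16.5 and 14.6 FPKM in testes and 37.6, 34.3 and 33.6 FPKM in ovaries. Again the testes were all lower (-1.27 ± 0.24, adjusted p = 0.00658).

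The scaffold of F-box ligases, cul1, was the most abundant cullin in ovary. The testes had 51.3, 33.5 and 26.8 FPKM, of which replicate 1 lay among the ovaries at 50.5, 61.1 and 54 FPKM. Its difference of -0.84 ± 0.28 (adjusted p = 0.0471) was called with all libraries and without testis replicate 1, and was lost without any 1 of the other libraries (adjusted p = 0.0667 to 0.135). The scaffold of BTB-Kelch ligases, cul3, was the most abundant cullin in testis, with 115, 62.7 and 62.7 FPKM, and had 41.4, 46.6 and 57.5 FPKM in ovaries. Every testis was above every ovary, but the difference of 0.57 ± 0.33 was not called (adjusted p = 0.186, and 0.13 to 0.445 with 1 library left out). The DDB1-binding cul4b had 35.7, 30.8 and 36 FPKM in testes and 29, 28.4 and 17.7 FPKM in ovaries (0.27 ± 0.27, adjusted p = 0.444).

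**Figure D2:**
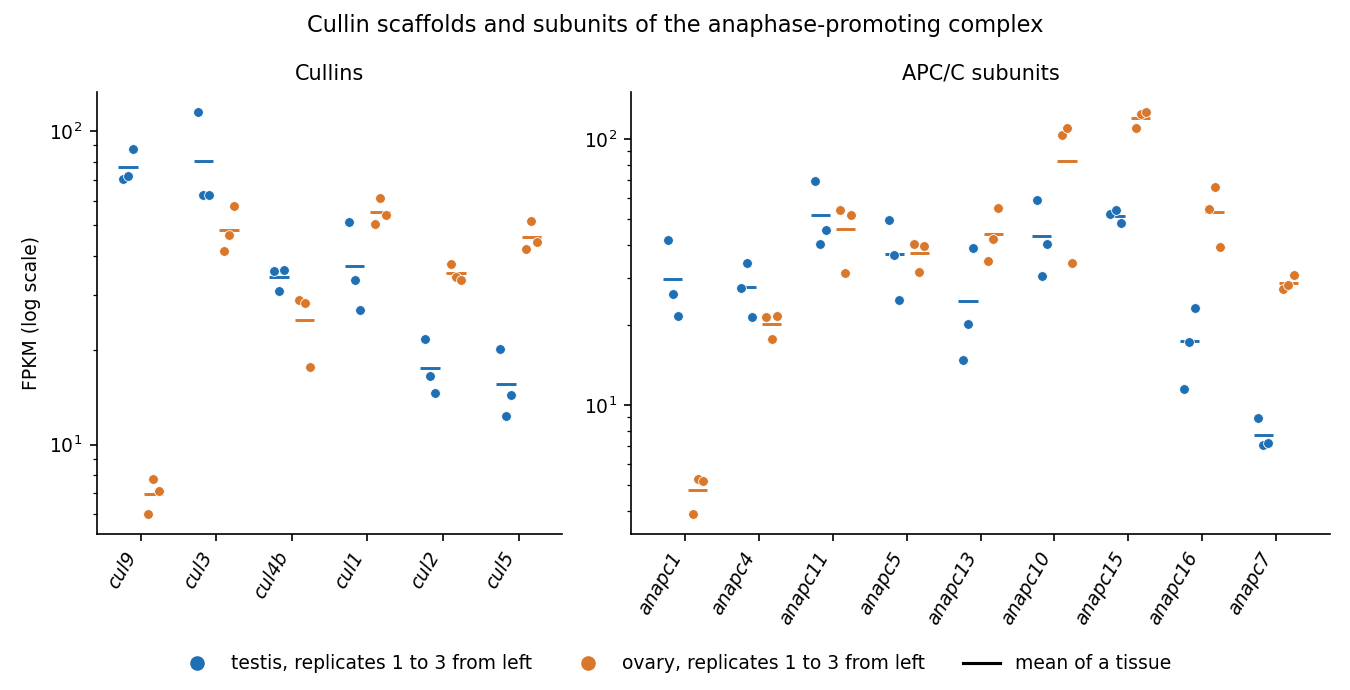
Points are the FPKM of the 6 libraries for the 6 cullins and the 9 APC/C subunits on a log axis, testes left of ovaries, with lines at the tissue means. In each panel genes run from the highest to the lowest fold change of testis over ovary. The gap is widest for cul9 among cullins, where testes lie between 70.3 and 87.7 and ovaries between 6.01 and 7.75, and anapc1 is the APC/C subunit called higher in testis.

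The cul3 total hid transcripts that differed by tissue. Of its 8 full-length transcripts, a 2574-base one built from ovary long reads had no count in any testis and 21.5, 31.8 and 19.1 FPKM in ovaries, where it made up 49.8% of the gene's mean FPKM. With a floor of 3 testis counts in all it was at least 860-fold lower in testis, and this bound was 539 without testis replicate 1. The other cul3 transcripts summed to 115, 62.7 and 62.7 FPKM in testes and 19.9, 14.8 and 38.4 FPKM in ovaries. Both rises of cul9 among transcripts lay in testis-built forms, of 2088 bases (4.92, adjusted p = 0.0277) and 1933 bases (5.70, adjusted p = 0.0412). The longest cul9 transcript, of 6957 bases, had 38, 9.49 and 6.25 FPKM in testes and 2.39, 3.23 and 2.59 FPKM in ovaries and was not called (2.34, adjusted p = 0.0831). How reads were divided among near-identical transcripts is a step that the sources used here do not describe, and these transcript values depend on it.

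**Figure D3:**
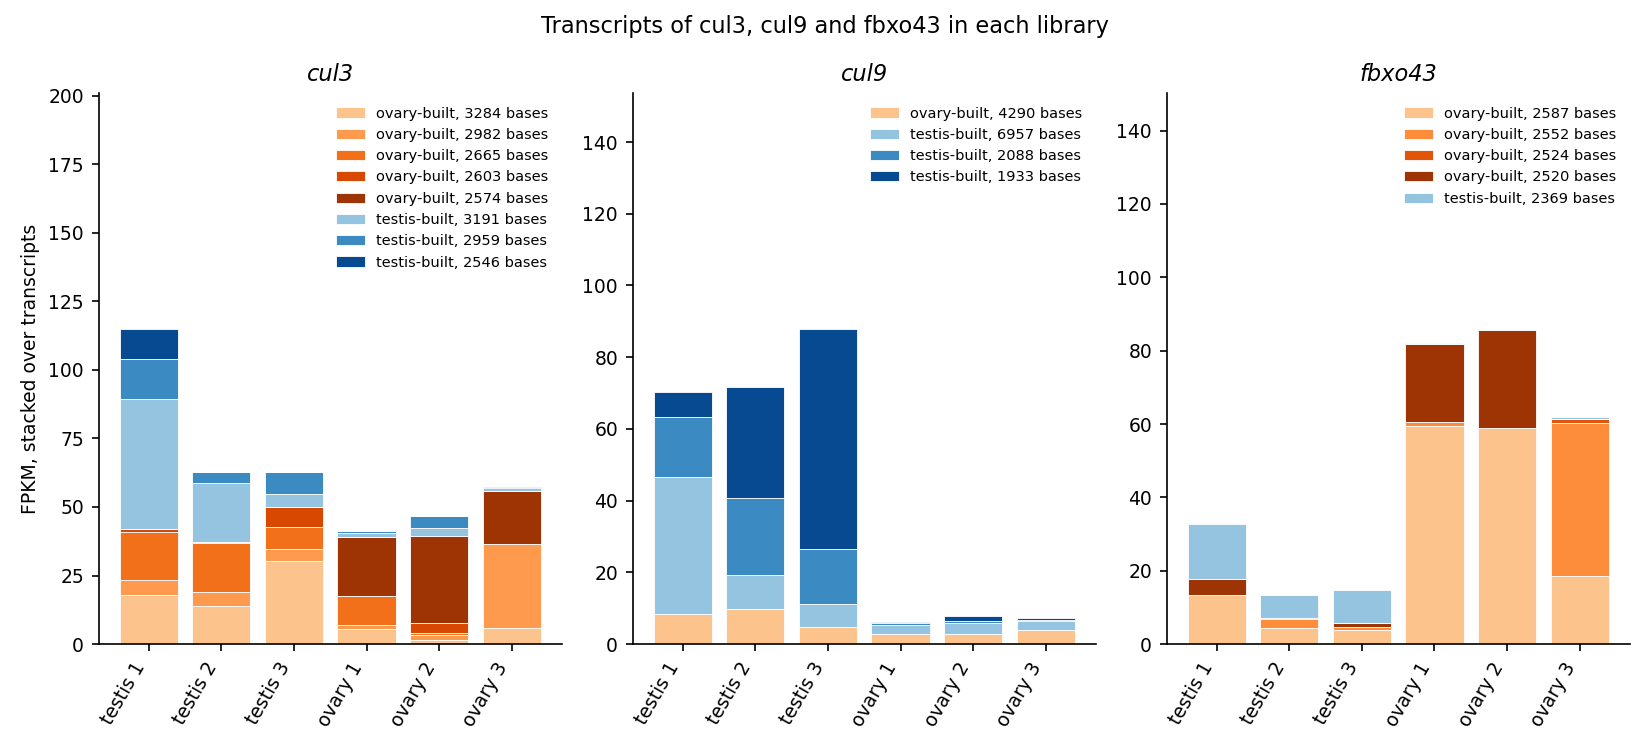
Stacked bars give the FPKM of each full-length transcript of cul3, cul9 and fbxo43 in the 3 testes and then the 3 ovaries. Orange shades are transcripts built from ovary long reads and blue shades those built from testis long reads. The 2574-base cul3 form is seen in ovaries alone, and the testes carry most of the blue.

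F-box genes were led in testis by fbxo36, fbxo3 and fbxo7. The testes had 140, 26.9 and 30.9 FPKM of fbxo36 and the ovaries 2.16, 2.28 and 3.43 FPKM. All testes exceeded all ovaries, with replicate 1 far above the rest (4.33 ± 0.77, adjusted p = 0.00495; 3.23 and 0.00411 without testis replicate 1). For fbxo3 the values were 40.8, 37.1 and 39.3 FPKM in testes and 4.75, 4.65 and 3.35 FPKM in ovaries. The testes lay close together and far above the ovaries (2.98 ± 0.26, adjusted p = 0.000972, the smallest of any member). A factor of mitophagy linked to parkinsonism, fbxo7, had 41, 26.9 and 28 FPKM in testes and 6.52, 3.84 and 5.39 FPKM in ovaries (2.30 ± 0.36, adjusted p = 0.0034). The most abundant F-box gene of testis, fbxo9, had 74.9, 76.8 and 75.8 FPKM there and 39.4, 38.3 and 27.3 FPKM in ovaries. Its groups did not overlap, but the call (0.83 ± 0.24, adjusted p = 0.0289) was lost without any 1 library other than testis replicate 1 (adjusted p = 0.0727 to 0.107).

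The F-box genes higher in ovary included both inhibitors of the APC/C. The metaphase inhibitor fbxo43, known as Emi2, which keeps vertebrate eggs arrested until fertilization, had 32.7, 13.4 and 14.8 FPKM in testes and 82, 85.8 and 61.8 FPKM in ovaries. It was the most abundant F-box gene of ovary, and no testis reached an ovary (-2.26 ± 0.38, adjusted p = 0.00417). Its relative fbxo5, known as Emi1, which restrains the APC/C before mitosis, had 25.7, 6.19 and 8.22 FPKM in testes and 48.8, 29.2 and 60.1 FPKM in ovaries. The groups did not overlap (-2.06 ± 0.59, adjusted p = 0.0277). This call was lost without testis replicate 2 or 3 or ovary replicate 1 or 3 (adjusted p = 0.0565 to 0.0669), and the difference was -2.88 without testis replicate 1 (adjusted p = 0.00398).

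The Snail regulator fbxl14 had 27.7, 14.3 and 13.9 FPKM in testes and 52.8, 55.5 and 37 FPKM in ovaries, all testes being lower (-1.67 ± 0.33, adjusted p = 0.00704). A beta-TrCP gene, fbxw11, whose protein degrades beta-catenin, had 29.8, 30.9 and 20.5 FPKM in testes and 45.7, 68.2 and 62.3 FPKM in ovaries (-1.29 ± 0.27, adjusted p = 0.00921). Below 5 FPKM, and named after its values were seen, fbxo41 had 0.3, 0.34 and 0.27 FPKM in testes and 2.39, 1.18 and 5.74 FPKM in ovaries, the largest fall of any member (-3.64, adjusted p = 0.0106; -2.83 without ovary replicate 3). Other called F-box genes were fbxl6, fbxo8, fbxo18, fbxo22 and fbxw12, higher in testis by 0.95 to 1.87, and fbxo45, lower by 1.53 on the log2 scale. The calls of fbxl6, fbxo22 and fbxw12 were lost without any 1 library other than testis replicate 1 (adjusted p = 0.0572 to 0.154).

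Transcripts of fbxo43 were called in both directions, which no other member showed. Its ovary-built form of 2587 bases had 13.5, 4.33 and 3.82 FPKM in testes and 59.5, 59 and 18.6 FPKM in ovaries (-2.98, adjusted p = 0.0484). A testis-built form of 2369 bases had 15.1, 6.44 and 9.15 FPKM in testes and 0.22, 0.19 and 0.46 FPKM in ovaries (4.77, adjusted p = 0.034). The testis-built form thus held 50.3% of the gene's mean FPKM in testis and 0.379% in ovary. Its best protein hit was human, while those of the 4 ovary-built forms were of Xenopus laevis, so 2 gene copies under 1 symbol and 2 forms of 1 gene cannot be told apart here. Of fbxo5, the ovary-built form was lower in testis (-3.23, adjusted p = 0.0443) and the testis-built one was not called (-1.37, adjusted p = 0.289).

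The BTB-Kelch genes held the 3 largest differences of all members, each in favour of testis. The lymphoid gene klhl6 had 17.4, 50.7 and 28.8 FPKM in testes and 0.16, 0.07 and 0.03 FPKM in ovaries (8.29 ± 0.79, adjusted p = 0.00103; 9.05 without ovary replicate 1). It was close to absent from the ovaries and highest in testis replicate 2. Leukocyte markers, 4 of 8 listed, summed to 71.1, 362 and 285 FPKM in testis replicates 1, 2 and 3 and 37.8 to 73.2 FPKM in ovaries, and ptprc, csf1r, lcp1 and cd4 matched no symbol. Their part in the klhl6 difference was not tested. The spermatid gene klhl10, a cul3 adaptor without which male mice are infertile, had 227, 23.5 and 14.2 FPKM in testes and 3.37, 2.93 and 2.42 FPKM in ovaries. Each testis was above each ovary, and replicate 1 was far above the other testes (4.44 ± 1.06, adjusted p = 0.0141). Without testis replicate 1 the difference was 2.39 (adjusted p = 0.00475), and without ovary replicate 1, 2 or 3 the adjusted p was 0.0501, 0.0525 and 0.0537.

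The summed sperm flagellum, meiotic, red blood cell and smooth muscle markers were each highest in testis replicate 1, as were klhl10, fbxo36 and kbtbd11. The part of these markers in the differences of these genes was not tested. For kbtbd11 the testes had 18.7, 0.67 and 0.22 FPKM and the ovaries 0, 0.04 and 0.08 FPKM. The difference of 6.90 ± 2.06 (adjusted p = 0.0308) rested on the first testis, being 3.17 without it (adjusted p = 0.0879), and the call was also lost without ovary replicate 1, 2 or 3 (adjusted p = 0.0722 to 0.0929). The mitotic adaptor klhl22, which removes the kinase PLK1 from chromosomes, had 42.1, 40.2 and 38.2 FPKM in testes and 1.54, 3.36 and 1.05 FPKM in ovaries (4.09, adjusted p = 0.00132). A regulator of Aurora B, klhl21, had 7.99, 8.07 and 5.03 FPKM in testes and 0.52, 0.52 and 0.44 FPKM in ovaries (3.56, adjusted p = 0.00259). Both, like klhl7 (3.62, adjusted p = 0.00493), were named after their values were seen. The other rises were klhl3, klhl8 and klhl24, from 0.99 to 1.5. The call of klhl8 was lost without any 1 of the 6 libraries (adjusted p = 0.067 to 0.151) and that of klhl3 without ovary replicate 1 or 2 (adjusted p = 0.0603 and 0.0765).

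On the ovary side, klhl13, another Aurora B adaptor, had 16.5, 16.2 and 12.6 FPKM in testes and 40.5, 52 and 52.9 FPKM in ovaries. The tissues were well apart (-1.77 ± 0.25, adjusted p = 0.00249), and klhl13 was the most abundant BTB-Kelch gene of ovary. For klhl20, an adaptor that marks the kinase DAPK, the testes had 24.4, 22.2 and 18.8 FPKM and the ovaries 38.8, 38.8 and 34 FPKM (-1.01 ± 0.22, adjusted p = 0.0103). The phosphatase regulator klhl15 had 9.75, 5.1 and 5.15 FPKM in testes and 17.7, 13.2 and 13.7 FPKM in ovaries, again without overlap. Its call (-1.29 ± 0.34, adjusted p = 0.0187) was lost without ovary replicate 1 or 2 (adjusted p = 0.056 and 0.0538). BTB-Kelch transcripts as a class took 0.147%, 0.0892% and 0.074% of counts in testes and 0.0557%, 0.061% and 0.0564% in ovaries.

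**Figure D4:**
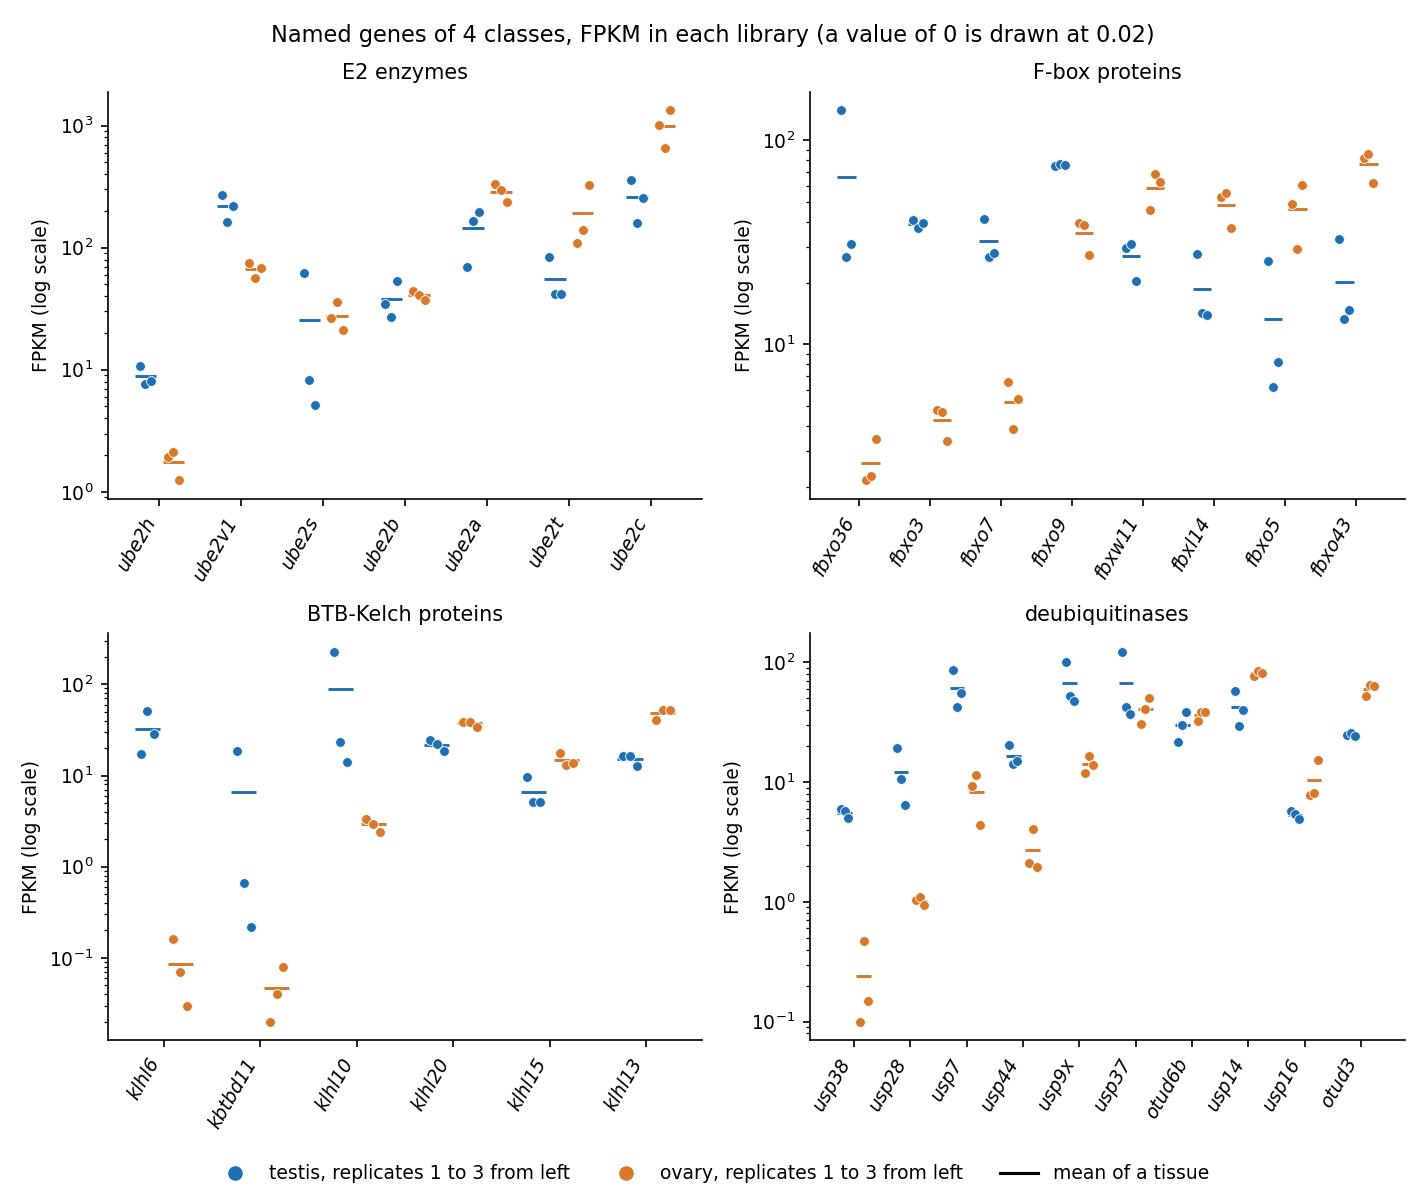
Points are the FPKM of each library on a log axis for genes named in 4 classes, testes left of ovaries, with lines at the tissue means. A value of 0, that of kbtbd11 in ovary replicate 1, is drawn at 0.02. Testis replicate 1 stands well above the other testes for fbxo36, kbtbd11, klhl10 and ube2s and beside them for fbxo3, fbxo9 and usp38.

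Of the 9 deubiquitinases higher in testis, usp38, usp28 and usp7 differed most among those that the naming rule covers. For usp38 the testes had 5.95, 5.72 and 4.98 FPKM and the ovaries 0.1, 0.47 and 0.15 FPKM (4.29 ± 0.76, adjusted p = 0.005; 5.13 without ovary replicate 2). Testis values were even and all far above the ovaries. For usp28 they were 19.3, 10.5 and 6.44 FPKM in testes and 1.03, 1.09 and 0.95 FPKM in ovaries (3.27 ± 0.48, adjusted p = 0.00279). Each of these genes had a single transcript, and its second protein annotation names the near relative, usp35 for usp38 and usp25 for usp28, so the symbols are uncertain within those pairs.

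The p53 pathway enzyme usp7, which stabilizes MDM2, had 85.4, 42.5 and 55 FPKM in testes and 9.22, 11.4 and 4.34 FPKM in ovaries. Every testis was above every ovary (2.66 ± 0.42, adjusted p = 0.00339). Of its 13 transcripts tested, 4 were called, all built from testis reads and higher in testis by 2.88 to 4.72. The large X-linked enzyme of mammals, usp9x, had 101, 52.5 and 47 FPKM in testes and 11.8, 16.5 and 13.8 FPKM in ovaries, without overlap (1.99 ± 0.33, adjusted p = 0.00421). The spindle checkpoint enzyme usp44, which takes ubiquitin off cdc20, had 20.3, 14.1 and 15 FPKM in testes and 2.1, 4.04 and 1.96 FPKM in ovaries. It too was separated (2.36 ± 0.57, adjusted p = 0.0147), and the call was lost without ovary replicate 1 (adjusted p = 0.0602). The other 4 rises were otud5a, usp12-b, usp19 and usp48, from 1.18 to 1.82. The call of otud5a was lost without testis replicate 2 or 3 or ovary replicate 1 or 2 (adjusted p = 0.0951 to 0.118), and that of usp19 without testis replicate 3 or ovary replicate 1 or 2 (adjusted p = 0.0576 to 0.0767).

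The 3 deubiquitinases higher in ovary were otud3, usp14 and usp16. The values of otud3, of the ovarian tumour domain family, were 24.9, 25.6 and 24.4 FPKM in testes and 52.6, 64.5 and 63.4 FPKM in ovaries. Within a tissue they hardly varied (-1.60 ± 0.23, adjusted p = 0.00273), although 1 testis-built transcript of otud3 was called higher in testis (4.19, adjusted p = 0.0415). The proteasome-bound usp14, the most abundant deubiquitinase of ovary, had 58, 29.6 and 39.7 FPKM in testes and 76.9, 84.8 and 80.5 FPKM in ovaries (-1.21 ± 0.29, adjusted p = 0.0144). The histone H2A deubiquitinase usp16 had 5.73, 5.36 and 4.87 FPKM in testes and 7.86, 8.1 and 15.4 FPKM in ovaries. Its call (-1.26 ± 0.40, adjusted p = 0.0394) was lost without any 1 of the 6 libraries (adjusted p = 0.0546 to 0.13).

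The most abundant deubiquitinase of testis, usp37, which counteracts the APC/C on cyclin A, was not called. It had 122, 42.1 and 36.6 FPKM in testes and 30.3, 40.6 and 50.6 FPKM in ovaries, so that only the first testis left the range of the ovaries (0.44 ± 0.45, adjusted p = 0.454; -0.19 and 0.587 without testis replicate 1). A testis-built usp37 transcript of 2782 bases had 16.8, 3.91 and 0.71 FPKM in testes and no count in ovaries, which puts it at least 264-fold above them in testis with a floor of 3 ovary counts in all. This bound was 88 without testis replicate 1 and 173 to 181 without 1 of the ovaries. Otud6b was not called either, with 21.5, 30 and 38.4 FPKM in testes and 32.3, 38.5 and 38.2 FPKM in ovaries (-0.53 ± 0.32, adjusted p = 0.208). Deubiquitinase transcripts took 0.392%, 0.2% and 0.198% of counts in testes and 0.151%, 0.17% and 0.175% in ovaries, with testis replicate 1 far above the rest.

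Of the 9 APC/C subunits 5 were higher in ovary, 1 was higher in testis and 3 were not called. The repeat-bearing arm subunit anapc7 had 8.93, 7.07 and 7.19 FPKM in testes and 27.2, 28.2 and 30.9 FPKM in ovaries. The tissues were far apart relative to their spread (-2.17 ± 0.26, adjusted p = 0.00157). The small subunit anapc16 had 11.5, 17.3 and 23.2 FPKM in testes and 54.4, 66 and 39.1 FPKM in ovaries (-1.85 ± 0.37, adjusted p = 0.00784). Likewise anapc15, which helps release the spindle checkpoint complex and is the most abundant subunit of ovary, had 52.4, 53.8 and 48.1 FPKM in testes and 110, 124 and 126 FPKM in ovaries, with even values and no overlap (-1.46 ± 0.23, adjusted p = 0.00344).

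The falls of anapc10 and anapc13 were less steady. The substrate receptor subunit anapc10 had 58.9, 30.4 and 40.2 FPKM in testes and 103, 110 and 34.3 FPKM in ovaries, where replicate 3 lay among the testes. Its call (-1.40 ± 0.42, adjusted p = 0.0301) was lost without any 1 library other than ovary replicate 3 (adjusted p = 0.0543 to 0.093). The stabilizing subunit anapc13 had 14.8, 20.1 and 38.9 FPKM in testes and 34.7, 42 and 55.2 FPKM in ovaries, which overlapped. It was called with all libraries (-1.20 ± 0.33, adjusted p = 0.0239) and not without testis replicate 2 or ovary replicate 1, 2 or 3 (adjusted p = 0.0593 to 0.0765).

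The scaffold subunit anapc1 went the other way. It had 41.7, 26.2 and 21.6 FPKM in testes and 3.9, 5.28 and 5.19 FPKM in ovaries, a clear separation (2.36 ± 0.31, adjusted p = 0.00203). The catalytic RING subunit anapc11 was the most abundant subunit of testis, with 69.6, 40.3 and 45.5 FPKM, and had 53.8, 31.4 and 51.8 FPKM in ovaries (-0.12 ± 0.35, adjusted p = 0.795; 0.06 with upper quartile scaling). The platform subunits anapc4 and anapc5 had 21.4 to 34.1 and 24.9 to 49.6 FPKM in testes, against 17.7 to 21.6 and 31.7 to 40.2 FPKM in ovaries. None of these 3 was called in either direction (adjusted p = 0.267 to 0.795).

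Of 11 other APC/C and spindle checkpoint genes edgeR called none higher in testis and 3 higher in ovary, as did DESeq2 and limma on log2(FPKM + 1). At an unadjusted p under 0.05 edgeR gave 0 and 3. The coactivator cdc20, which brings targets to the APC/C, had 77.4, 46.1 and 23.9 FPKM in testes and 1043, 1477 and 1417 FPKM in ovaries, a difference of -5.10 ± 0.53 (adjusted p = 0.00119) that exceeds that of every member in favour of ovary. The checkpoint protein mad2l1 had 225, 147 and 159 FPKM in testes and 343, 338 and 392 FPKM in ovaries (-1.29 ± 0.27, adjusted p = 0.00903). Its antagonist mad2l1bp had 19.2, 7.74 and 4.33 FPKM in testes and 54.1, 62.2 and 67 FPKM in ovaries (-2.85 ± 0.53, adjusted p = 0.00593; -3.55 without testis replicate 1). All testes were below all ovaries for each of these 3 genes. In the same edgeR fit the APC/C subunits cdc16, cdc23 and cdc27 were not called (0.15, -0.06 and -0.07, adjusted p = 0.639, 0.908 and 0.881). Nor was the coactivator fzr1 (0.43, adjusted p = 0.246).

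Upstream of the E2 enzymes, 5 of 14 genes for ubiquitin, its relatives and their E1 enzymes rose in testis and 4 fell. The fusion gene rps27a, which encodes ubiquitin joined to a ribosomal protein, had 6447, 19096 and 20402 FPKM in testes and 2622, 2517 and 1851 FPKM in ovaries. All testes were above all ovaries, with replicate 1 the lowest of them (2.49 ± 0.57, adjusted p = 0.0123, and 0.0544 to 0.0628 without 1 of the ovaries).

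The parts of the NEDD8 E1, the enzyme that starts the activation of cullins, went opposite ways. Its catalytic part uba3 had 49, 38.6 and 34.1 FPKM in testes and 17.6, 9.03 and 11 FPKM in ovaries (1.42 ± 0.35, adjusted p = 0.0166; lost without testis replicate 2 or ovary replicate 2 or 3, adjusted p = 0.0505 to 0.0598). Its partner nae1 had 31, 21.2 and 27.4 FPKM in testes and 70.7, 76.6 and 55.5 FPKM in ovaries (-1.47 ± 0.24, adjusted p = 0.00403). Neither gene overlapped between the tissues. Also lower in testis was sae1, part of the SUMO E1 (-1.25 ± 0.33, adjusted p = 0.0195, and 0.0571 without ovary replicate 2).

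Of 39 adaptors and regulators of cullin ligases, 6 favoured testis and 9 ovary. The COP9 signalosome subunit cops6, of the complex that takes NEDD8 off cullins, had 181, 136 and 171 FPKM in testes and 26.6, 29.4 and 32.4 FPKM in ovaries (2.20 ± 0.24, adjusted p = 0.00132). The cul4 receptors dcaf11 and dcaf8 were also higher in testis (1.24 and 1.20, adjusted p = 0.00672 and 0.00831). The BTB proteins kctd10, kctd1 and gan, of which kctd10 and gan are cul3 adaptors, were lower (-2.80, -2.60 and -1.74). Of these, kctd10 had 9.66, 3.71 and 4.26 FPKM in testes and 27.1, 37.3 and 40.8 FPKM in ovaries (adjusted p = 0.00314), and the adjusted p was 0.0048 for kctd1 and 0.00617 for gan.

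Among 20 deubiquitinases of other families 3 favoured testis and 5 ovary. The ataxin enzyme atxn3 had 13.5, 13.5 and 11.9 FPKM in testes and 2.72, 3.91 and 2.85 FPKM in ovaries (1.79 ± 0.36, adjusted p = 0.00759). The SUMO protease uspl1 had 39.6, 603 and 186 FPKM in testes and 18.5, 23.1 and 30.7 FPKM in ovaries (2.77, adjusted p = 0.0247), a call lost without any 1 library other than testis replicate 1 (adjusted p = 0.061 to 0.0963; 2.0 without testis replicate 2). The call of yod1 (2.90, adjusted p = 0.035) was lost without testis replicate 1, where it was 1.32, or any 1 ovary (adjusted p = 0.0741 to 0.107). Lower in testis were the ubiquitin hydrolases uchl1 (-3.22, adjusted p = 0.0108; -2.48 without ovary replicate 3) and uchl3 (-2.28, adjusted p = 0.00254) and the proteasome lid enzyme psmd14 (-1.55, adjusted p = 0.00835). Uchl1, which marks spermatogonia in mammals, had 12.7, 35 and 48.1 FPKM in testes and 282, 103 and 577 FPKM in ovaries.

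Of 40 other ubiquitin ligases 14 favoured testis and 9 ovary. The giant ligases herc2, herc1 and ubr4 were led by herc2, with 27.5, 42 and 41 FPKM in testes and 1.59, 1.96 and 1.96 FPKM in ovaries (4.09 ± 0.32, adjusted p = 0.000854). The others gave 3.83 ± 0.32 for herc1 and 3.52 ± 0.33 for ubr4 (adjusted p = 0.000921 and 0.00102). Lower in testis were rnf8, a ligase of DNA breaks and of sperm histone removal in mice, with 29.8, 30.8 and 27.5 FPKM in testes and 66.2, 75.6 and 55.8 FPKM in ovaries (-1.42 ± 0.23, adjusted p = 0.00379), rnf114 (-2.09, adjusted p = 0.00657) and trim36, a ligase of the egg cortex in Xenopus (-3.27, adjusted p = 0.00972; -4.33 without testis replicate 1). Over all 5 lists the share called ran from 0% to 35.7% in favour of testis and from 22.5% to 28.6% in favour of ovary. Of all genes 24.8% and 21.1% were called in these directions, and of genes with a symbol 22.8% and 22.5%.

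The level of the members in testis replicate 1 exceeded the mean of testis replicates 2 and 3 by a median of 0.39 on the log2 CPM scale, with 34 members above 1 and 8 below -1, or 23.4% and 5.52%. Over all genes the median was -0.01, with 20.2% above 1 and 22.9% below -1. By class this median was 0.63 for deubiquitinases, 0.48 for BTB-Kelch and 0.47 for cullin genes, 0.22 for E2 and 0.19 for F-box genes and 0.09 for APC/C subunits. In 21 members, 14.5%, the FPKM of testis replicate 1 was at least 3 times that of both other testes, as in 10.6% of all genes.

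Without this library testis was higher for 31 members and ovary for 37, where all genes gave 25% and 24%. The calls gained were 12 in favour of ovary, among them ube2s, usp4 and usp10, and fbxo6 in favour of testis, and 5 were lost. The enzyme usp10 had 57.6, 11.2 and 7.8 FPKM in testes and 17.8, 19.1 and 17.3 FPKM in ovaries, and usp4 had 38.7, 8.4 and 7.94 FPKM in testes and 16.1, 19.1 and 20.9 FPKM in ovaries. In both the first testis was above all ovaries and the others were below them. Their log2 fold changes were 0.17 and -0.25 with all libraries and -1.16 and -1.21 without testis replicate 1 (adjusted p = 0.0138 and 0.00823). A single gene with reads in 1 testis alone was fbxl22, with 4.64, 0 and 0 FPKM in testes and 2.66, 6.75 and 8.22 FPKM in ovaries. These genes were named after their values were seen.

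**Figure D5:**
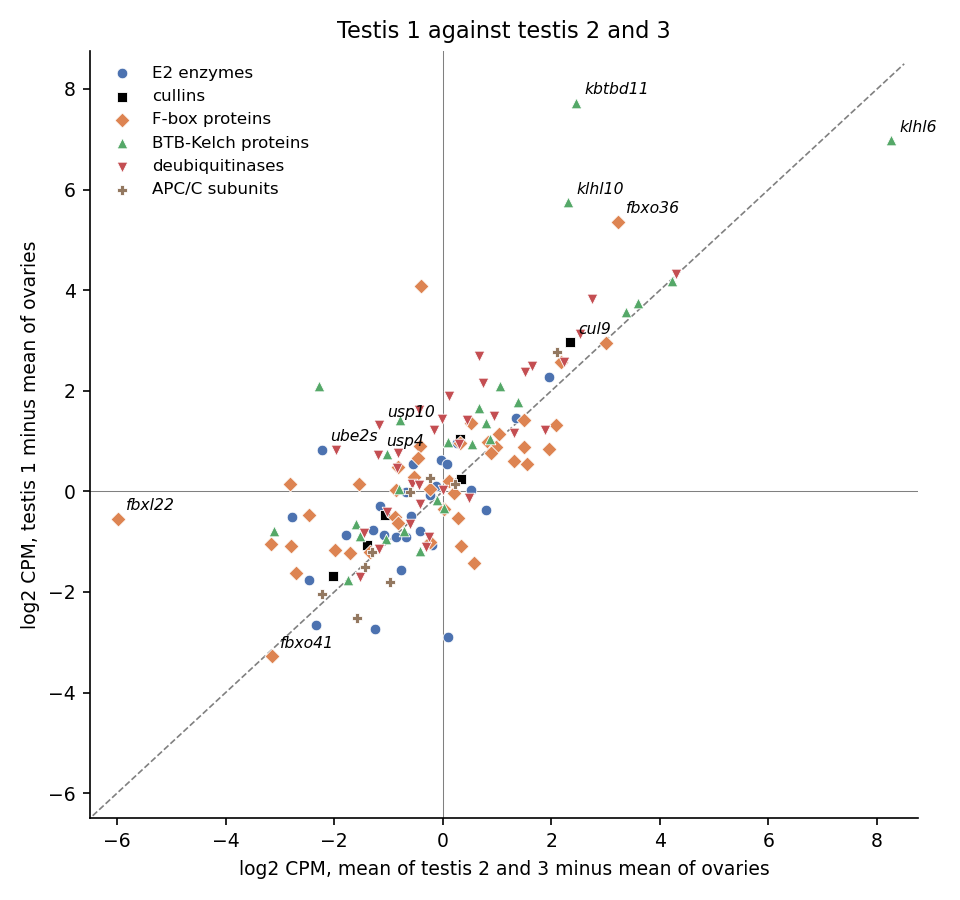
Each point is 1 member, with the log2 CPM of testis replicate 1 minus the ovary mean on the vertical axis and that of the mean of testis replicates 2 and 3 minus the ovary mean on the horizontal axis. On the dashed line both are equal. Of the members, 83 lie above 0 with testis replicate 1 and 63 with the other testes, and 29 are above 0 with the first alone.

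The tissue whose long reads gave the transcripts went with the direction. Of 17 members with testis-built transcripts only, 11 favoured testis and 1 ovary, or 64.7% and 5.88%, as against 52.6% and 7.82% of all 1624 such genes with a symbol. Of 46 members with ovary-built transcripts only, 4 favoured testis and 9 ovary, 8.7% and 19.6%, against 8.88% and 31.4% of 3220 such genes. Members with transcripts of both kinds, 82 in all, gave 17 and 18, 20.7% and 22%, against 21.9% and 21.5% of 4338 such genes. A transcript had to be read in a tissue to be built from it, so the kind of transcript and the direction are not independent.

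At the level of transcripts, 25 of 467 tested were higher in testis, 13 higher in ovary and 429 not called, where 6.26% and 4.4% of all 30738 transcripts were called, 10.7% in all. Of the 155 testis-built ones 23 favoured testis and 3 ovary, and of the 312 ovary-built ones 2 and 10. Shares over all transcripts of each kind are not given here, so this split cannot be read as particular to the members. As with genes, the kind of transcript and the direction are not independent. When any 1 library other than testis replicate 1 was left out, edgeR called none of the members' transcripts and 0% of all transcripts tested, and 8 and 7 were called without that one, beside 2.91% and 1.57% of all transcripts. At an unadjusted p under 0.05 these fits gave 91 to 97 member transcripts, and the fit with all libraries gave 103. DESeq2 called 59 and 48 with all libraries, beside 15.9% and 16.3% of all transcripts. Values of single transcripts, those of cul3, cul9, fbxo43, fbxo5, usp7 and usp37 included, share this limit.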

How the data were processed

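Members, gene lists and tests were chosen with earlier results of these data known. Per the labels' protocols, TRIzol RNA was made into libraries with the NEBNext Ultra RNA kit, which does not mark strand. The submitters' processing notes name featureCounts 1.5.0-p3, HISAT2 2.0.5, CASAVA 1.8 and fastp, with no role for any of them, and the sources used here name neither the quantifier nor a genome build. Per the file headers, the authors deposited read counts and FPKM for 35011 full-length transcripts, of which ovary long reads gave 22549 and testis long reads 12462. The deposited counts are estimated counts, of which 26.5% to 31.6% in a library are whole, and were rounded after summing. The deposited FPKM, scaled by the authors for transcript length and library size, summed to 721650 to 1312673 per library. Deposited transcript lengths (other) were used to name transcripts.

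Counts and FPKM were summed per SwissProt gene symbol of a vertebrate hit, and transcripts without one stayed single (13194 units, 12367 tested). The edgeR fold changes came from counts, which are not scaled for transcript length, so they can differ from ratios of the FPKM. The 517 member transcripts gave 145 symbols, 38 of them with 1 transcript. Differences (testis minus ovary) were tested with edgeR 4.0.16 in R 4.3.3 (TMM, filterByExpr by group, robust glmQLFit, glmQLFTest, tissue as the only term), with Benjamini-Hochberg adjustment over all units tested and a threshold of 0.05. Standard errors are the size of the log2 fold change over the root of the F statistic, errors printed after ± are these, and log2 CPM used a prior count of 2. The fish are separate animals, and 3 against 3 is few: an exact permutation test of a single value could not go below 0.1. Bounds cover counting error only. The model was tested on simulated counts with the same dispersion for every gene and no outlying library. That test does not cover a library such as testis replicate 1. Alternatives used limma 3.58.1 and DESeq2 1.42.0, and tables and figures Python 3.11.15, pandas 2.3.3, numpy 2.4.6 and matplotlib 3.10.9.

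Named genes, 47 in all, were up to 3 called rises and 3 called falls per class, without overlap and with a mean in the higher tissue of 5 FPKM or more, the most abundant member of each class in each tissue, every cullin and anapc gene, and a fixed set, of which ube2j1, fbxo47, fbxw7 and usp26 matched no symbol and were not analysed here. List genes were up to 3 per direction with the smallest adjusted p, also at 5 FPKM or more in the higher tissue. Any other gene with values was named after its values were seen, and some genes that these rules name are not reported here.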

Additional observations from a re-analysis of the deposited data

How the results depend on the processing

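Of the 60 calls, 36 held without each of the 6 libraries in turn, 20 in favour of testis and 16 of ovary. The matching count over all genes is not given here, so this one cannot be read as particular to the members. With 1 library left out, 20 to 31 members were higher in testis, beside 15.9% to 25% of all genes. In ovary 17 to 37 were higher, beside 15% to 24%. By class these ranges were 2 to 9 E2, 2 to 3 cullin, 5 to 9 F-box, 2 to 6 BTB-Kelch, 2 to 6 deubiquitinase and 3 to 4 APC/C genes higher in ovary, and 5 to 11 F-box, 5 to 8 BTB-Kelch and 6 to 9 deubiquitinase genes higher in testis. The highest ovary counts came without testis replicate 1. Transcripts gave 0 to 8 and 0 to 7, beside 0% to 2.91% and 0% to 1.57% of all transcripts. Relative log expression scaling, no filter, DESeq2 and upper quartile scaling kept 59, 59, 59 and 52 of the 60 calls, limma on log2(FPKM + 1) or log2(FPKM + 0.1) 51, and symbols of any organism 60, none in the opposite direction. E2 genes higher in ovary were 3 with upper quartile scaling and 11 with DESeq2, and APC/C genes higher in ovary 3 with limma at either pseudocount. Of all genes 18.4%, 25.6% and 19% to 19.4% were higher in ovary in these fits. Members' transcripts higher in testis and in ovary were 13 and 8 without a filter, beside 2.84% and 1.67% of all transcripts. With DESeq2 they were 59 and 48, beside 15.9% and 16.3%. The causes were not tested.

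Replicate numbers are not known to pair the fish. Deviations of same-numbered libraries correlated at -0.028, 0.006 and -0.031, and those of differently numbered ones at -0.005 to 0.041. With 3 libraries per tissue these values cannot decide whether same-numbered libraries shared a batch. With the replicate block 23 members were higher in testis and 20 in ovary, beside 18.4% and 16.7% of all genes. All 43 were among the 60 calls, with 3 E2 genes higher in ovary and 6 F-box genes higher in testis. Of the members' transcripts 0 were called in either direction, as were 0% of all transcripts. At an unadjusted p under 0.05 edgeR gave 81 member transcripts, and DESeq2 without the block called 59 and 48.

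Restricting the sums to 1 kind of transcript changed most counts. With the ovary-built kind the class medians were 0.12 for E2 and 0.19 for cullin genes, beside 0.01 for all genes. With the testis-built kind they were 0.48 for cullins, -0.27 for F-box and -1.65 for E2 genes, beside 0.27 for all genes. Each fit was scaled on its own, so these signs are not comparable with those of the main fit. Ovary-built transcripts alone, of 128 members, gave 18 members higher in testis and 6 in ovary, beside 12.7% and 14.3% of all genes. By class these were 6 and 3 F-box, 1 and 1 BTB-Kelch genes, and in ovary 1 E2, 0 cullin, 0 deubiquitinase and 1 APC/C gene. Testis-built transcripts alone, of 95 members, gave 11 and 14, beside 14.8% and 12% of all genes. By class these were 3 and 2 F-box, 4 and 0 BTB-Kelch, 0 and 2 APC/C genes, 0 E2 and 3 deubiquitinase genes in testis and 0 cullins in ovary. In these fits edgeR gave, at an unadjusted p under 0.05, 1 cullin in ovary with either kind, 0 deubiquitinases in ovary with the ovary-built kind, and with the testis-built kind 0 BTB-Kelch genes in ovary, 1 E2 and 0 APC/C genes in testis. No other tool was run on these sums. The testis-built sums reversed fbxo43 (3.26, adjusted p = 0.0216), fbxo9 (-0.58) and klhl20 (0.28). All 3 transcripts of fbxo9 are testis-built, so its counts were the same in both fits and the scaling moved its value.

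The lowest summed count of a member gene was 297 and the highest 35795. Whether low counts limit single transcripts more than genes was not tested.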
